A study of Mus musculus with 9 samples.

Results

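Genes tied to heat production in fat were examined, namely the uncoupling protein Ucp1 with its relatives Ucp2 and Ucp3, genes that mark or specify brown fat (Cidea, Elovl3, Prdm16) and the creatine pathway (Gatm, Gamt, Slc6a8, Ckb). These 10 genes were taken by their symbols from the 9 RNA-seq libraries, in which 19094 genes were listed in at least 1 library. Of the 10 genes, 9 were listed in at least 1 library, and 5 passed the filter on low counts and were tested. Gatm was listed in none of the 9 libraries and was not analysed further here.

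Brown and beige adipocytes release energy as heat. Ucp1 lets protons return across the mitochondrial inner membrane without ATP being made, and in the futile creatine cycle a creatine kinase loads phosphate onto creatine and a phosphatase takes it off again. White adipocytes store lipid and carry little of either route, and the line studied here is commonly used as a model of white fat.

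The cells were 3T3-L1, a line of mouse preadipocytes that fill with lipid under a hormone cocktail, and RNA was taken on 3 days with 3 libraries each. Day 0 cells were near confluence in complete medium with serum. Day 4 cells had received dexamethasone, IBMX and insulin, a cocktail that the study's methods call a white one, and then medium with insulin alone. Day 8 cells had stayed in the insulin medium until they were harvested. The methods name no thyroid hormone, thiazolidinedione or adrenergic agonist in these media, and all groups share 1 cell line. Insulin was added to the media of the day 4 and day 8 cells and is not named for the day 0 cells. Cells of a stage were pooled before RNA extraction. Neither the labels nor the methods say whether the 3 libraries of a day came from separate cultures, so that p-values measure the spread between libraries, which may be technical.

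The files give, for each gene, an expected count (the number of fragments that RSEM assigned to the gene) and an FPKM (the same fragments after scaling by gene length and by library depth). Libraries held between 18216114 and 20452144 expected counts. A gene was taken as detected on a day if it had at least 3 counts in each of the 3 libraries of that day, which corresponded to 0.147 to 0.165 CPM (counts scaled to depth), a limit that covers counting error only. Levels of different genes are compared below as FPKM, which accounts for gene length, while changes of a gene between days are log2 fold changes fitted to the counts with edgeR's quasi-likelihood test. Upregulated and downregulated genes are those that differed by more than 2-fold with a Benjamini-Hochberg adjusted p under 0.05, and such genes are said to be called. Day 4 against day 0 is the early phase, day 8 against day 4 the late phase and day 8 against day 0 the whole process. These comparisons share libraries and are not independent of each other. RNA of a whole culture was measured, in which fewer cells of a type and less RNA per cell cannot be told apart.

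The labels call the cells adipocytes on every day. The 8 adipocyte markers examined (Adipoq, Fabp4, Plin1, Lipe, Pparg, Cebpa, Slc2a4 and Cfd) summed to 33.9 ± 1.55 FPKM (SD, n = 3) on day 0, 5267 ± 999 on day 4 and 7053 ± 303 on day 8. Fabp4, the fatty acid binding protein of adipocytes, was the most abundant of them. All 8 were called upregulated in the early phase, beside 9.77% of all genes, but Adipoq, Plin1, Slc2a4 and Cfd, with 36, 19, 27.05 and 16 counts summed over day 0, passed the filter only through the later days, so that this count is a description. The summed level on day 0 was low, although the label of that day is the same. The extraction text of the labels speaks of dorsal root ganglia, and markers of sensory neurons were therefore examined. Of 12 such genes, 0 reached 1 FPKM in all 9 libraries, and their sum was 0.79 ± 0.19 FPKM on day 0, 1.45 ± 0.10 on day 4 and 1.61 ± 0.14 on day 8. Most of this sum on the later days was Snap25, a vesicle fusion protein, which had 0.00, 0.08 and 0.00 FPKM on day 0 and 1.08, 1.10 and 1.17 on day 4. Snap25 was the 1 gene of the list tested and was called upregulated in the early phase (adjusted p = 3.3e-08), having passed the filter only through the later days. Calca, a neuropeptide gene, had 0 counts on day 0 and day 4 and 3, 6 and 6 on day 8. Isl1, a transcription factor, had 6, 33 and 7 counts summed over day 0, day 4 and day 8, while Nefl and Nefm were unlisted on both later days. Others of the list were lower on the later days, with 38, 5 and 6 summed counts of Prph, 31.5, 6 and 13.02 of Tubb3 and 15.4, 6.37 and 4.4 of Scn9a, and were not tested. The part of such cells in the results was not tested.

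Detection divided the 10 genes into a small abundant group and a large group at the limit of these libraries. Ucp2, Gamt and Slc6a8 were detected on all 3 days and were the only ones with at least 1 FPKM in each library of any day. On day 0 they were the 3 genes detected. Ucp3 and Elovl3 were added on day 4 and day 8. Ckb was detected on day 4 alone, where 6 genes were detected in all, since 1 of its libraries fell below 3 counts on day 8 and another on day 0, which left 5 genes detected on day 8. Ucp1, Cidea and Prdm16 were below detection on all 3 days, and no level can be given for Gatm, which was not listed. With a limit of 1 count in each library, Ucp3 and Ckb were also detected on day 0, and Cidea on day 4 and day 8 and Ckb on day 8, while with a limit of 10 counts Ucp3 and Ckb were not detected on day 4. The plot of FPKM by library shows this difference in scale.

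**Figure D1:**
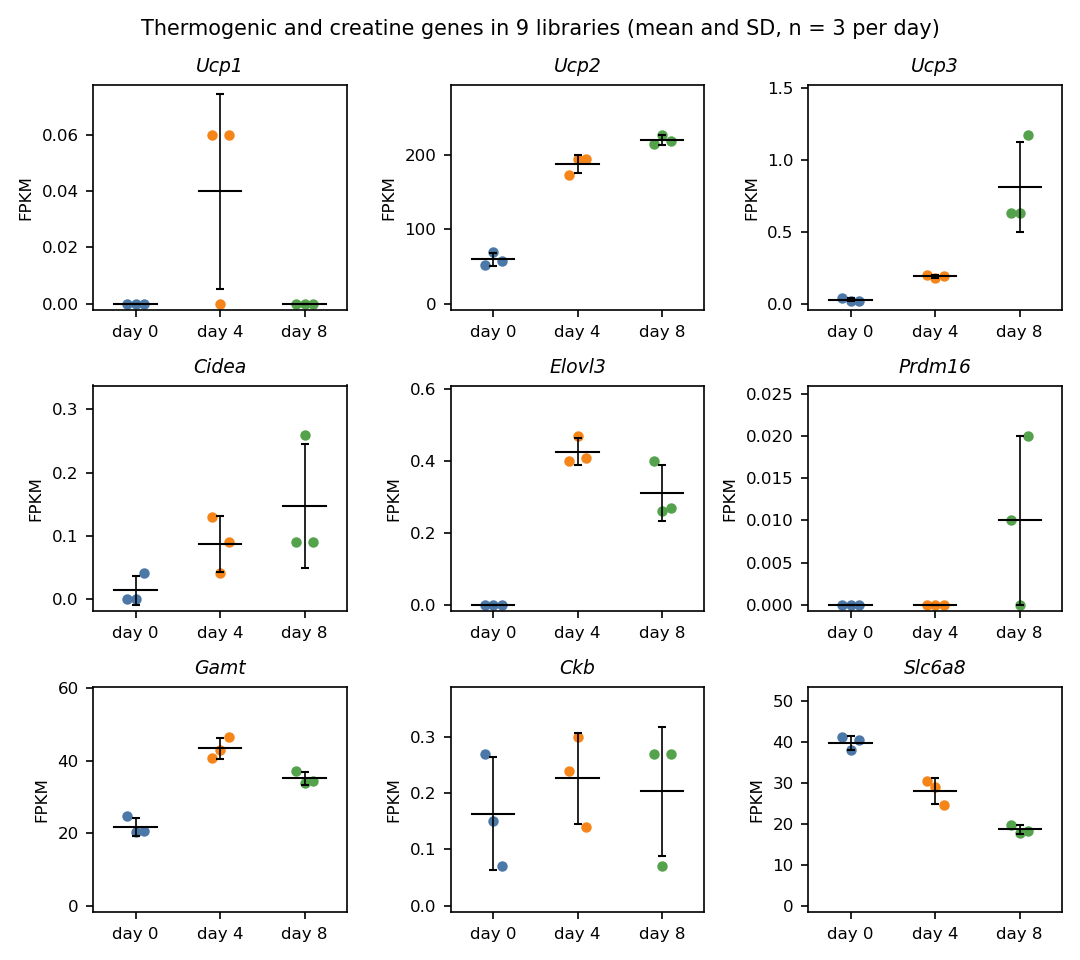
FPKM (y axis, linear, a scale of its own in each panel) on day 0, day 4 and day 8 (x axis) for the 9 genes listed in at least 1 library. Points are libraries (3 per day), horizontal lines are means and bars are SDs, which run below 0 where the SD exceeds the mean. Ucp2 reached 220 FPKM on day 8, while Ucp1, Cidea, Elovl3, Prdm16 and Ckb stayed below 1 FPKM in every library.

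The order of the levels can be read from FPKM. On day 0 Ucp2 stood first (52.3 to 69.3 FPKM), followed by Slc6a8 (37.95 to 41.2) and Gamt (20.3 to 24.6), and the libraries of these genes did not overlap. On day 4 Gamt (40.8 to 46.5 FPKM) had passed Slc6a8 (24.6 to 30.6), and the ranges again did not overlap. The same order held on day 8, where Ucp3 (0.63 to 1.17 FPKM) came next. Below it the libraries of Elovl3 (0.26 to 0.40 FPKM), Ckb (0.07 to 0.27) and Cidea (0.09 to 0.26) overlapped or met, so that their order is not separated by the spread. Among the genes listed on day 8, ranked by mean FPKM, Ucp2 was at rank 301 of 17284, Gamt at 2359, Slc6a8 at 4164 and Ucp3 at 11455.

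The 3 uncoupling proteins are close relatives among the mitochondrial carriers, and Ucp2 and Ucp3 are neighbours in the genome. The 250 bases before the annotated start of each are shown because the 3 genes stood at such different levels. The sequences are those of RefSeq on GRCm38.p6, 5′ to 3′ on the strand of the gene. They lie at chr8:83290098-83290347 on the plus strand for Ucp1, chr7:100493108-100493357 on the plus strand for Ucp2 and chr7:100472741-100472990 on the plus strand for Ucp3. Capitals mark matches, on either strand, to the letters AGGTCA, a nuclear receptor half-site, or GGGCGG, a GC box.
Ucp1: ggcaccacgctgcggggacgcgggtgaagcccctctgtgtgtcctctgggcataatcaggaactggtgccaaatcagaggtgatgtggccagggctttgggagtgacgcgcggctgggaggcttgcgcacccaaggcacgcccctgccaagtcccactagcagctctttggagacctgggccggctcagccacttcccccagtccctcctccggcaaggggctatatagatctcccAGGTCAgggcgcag
Ucp2: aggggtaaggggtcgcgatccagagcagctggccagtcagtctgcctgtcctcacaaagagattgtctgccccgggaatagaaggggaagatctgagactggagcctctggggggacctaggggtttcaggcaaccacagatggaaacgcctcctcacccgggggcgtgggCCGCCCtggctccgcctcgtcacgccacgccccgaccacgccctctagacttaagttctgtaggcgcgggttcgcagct
Ucp3: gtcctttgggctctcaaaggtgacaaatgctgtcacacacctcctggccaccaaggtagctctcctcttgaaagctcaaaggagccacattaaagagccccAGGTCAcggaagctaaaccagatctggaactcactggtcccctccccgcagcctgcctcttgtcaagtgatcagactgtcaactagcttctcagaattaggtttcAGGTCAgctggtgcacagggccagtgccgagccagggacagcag

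Windows were found for 7 of the 10 genes, Cidea, Elovl3 and Slc6a8 being without an entry. In the window of Ucp1 there was 1 half-site, starting 14 bases before the start of the gene, and 12 CG dinucleotides. The window of Ucp2 held 1 GC box, 79 bases before the start, and 16 CG dinucleotides. In that of Ucp3 there were 2 half-sites, at 149 and 44 bases before the start, and 3 CG dinucleotides. Over all 32851 windows of this length, 14.0% held AGGTCA on either strand, 32.7% held GGGCGG, and the median number of CG dinucleotides was 6. TATAAA, the letters used here for the TATA box, was found in 12.4% of all windows, and TGACGTCA, a cyclic AMP response element, in 1.55%. Neither was in the windows of these 3 genes. Only exact letters were searched, and the window of Ucp1 held TATATA, which differs from TATAAA in 1 letter, near its end. These matches are descriptions of sequence, and binding was not measured.

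Ucp2 (gene ID 22228), a carrier that many tissues express and that exports metabolites from mitochondria, was the most abundant of the 3 uncoupling proteins. Its libraries had 1680, 1985 and 1834 counts on day 0, 5495, 6236 and 5996 on day 4, and 6786, 7191 and 6845 on day 8. Every library of a later day was above every library of an earlier one. In FPKM this was 59.6 ± 8.79 (SD, n = 3) on day 0, 187 ± 12.03 on day 4 and 220 ± 6.14 on day 8. Ucp2 was upregulated 3.30-fold in the early phase (log2 fold change 1.72, SE 0.079, adjusted p = 1.1e-11, edgeR) and 3.99-fold in the whole process (1.998, SE 0.079, adjusted p = 1.8e-12). In the late phase it was higher by 1.21-fold (0.28, SE 0.074, adjusted p = 0.0063), which is short of the fold threshold. The late change was smaller than the early one by 1.44 on the log2 scale (SE 0.13, adjusted p = 8.4e-08).

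Ucp3 (gene ID 22229), the uncoupling protein of skeletal muscle and brown fat, moved in both phases at a far lower level. It had 2, 1 and 1 counts on day 0, 10, 9 and 9 on day 4, and 31, 31 and 57 on day 8. The days did not overlap, and the library with 57 counts stood apart from the other libraries of day 8. The level was 0.027 ± 0.012 FPKM on day 0, 0.19 ± 0.010 on day 4 and 0.81 ± 0.31 on day 8 (SD, n = 3). Summed over libraries and scaled to depth, counts on day 4 were 6.87 times those on day 0 (exact 95% counting interval 2.40 to 26.9), and counts on day 8 were 4.25 times those on day 4 (2.80 to 6.67). Ucp3 was called upregulated in the early phase (log2 fold change 2.73, SE 0.65, adjusted p = 0.0015), in the late phase (2.12, SE 0.33, adjusted p = 7.4e-05) and in the whole process (4.85, SE 0.48, adjusted p = 1.8e-07). Without the library with 57 counts the late change was 1.77, still above the threshold. Late and early changes of Ucp3 were not separated (difference -0.61, SE 0.85, adjusted p = 0.56). It passed the filter only through its later days, and on log2(FPKM + 1), which compresses such low values, none of its 3 calls was made.

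Markers of skeletal muscle, the tissue best known for Ucp3, were followed beside it. The 9 muscle genes summed to 1.96 ± 0.43 FPKM on day 0, 1.22 ± 0.15 on day 4 and 2.06 ± 0.62 on day 8. Of these genes 3 were tested. Acta1, the skeletal actin, was the most abundant of the 9, with 0.87, 0.90 and 0.42 FPKM on day 0, 0.55, 0.89 and 0.50 on day 4 and 1.10, 1.28 and 1.82 on day 8. It was highest in the third library of day 8, the one with 57 counts of Ucp3. Acta1 was called upregulated in the late phase (1.16, SE 0.31, adjusted p = 0.0062) and over the whole process (1.05, SE 0.31, adjusted p = 0.0057), and without that library neither call was made (0.95 and 0.84). Tnnt3, a troponin of fast muscle, was downregulated in the early phase (-1.08, SE 0.31, adjusted p = 0.0058) and had 11, 10 and 19 counts on day 8, highest in the same library. The defining genes Myod1 and Myh2 were listed in no library, and Myog had 1 count in all. The part of muscle-like cells in the change of Ucp3 was not tested.

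Ucp1 (gene ID 22227), the uncoupling protein that defines thermogenic fat, was below detection throughout. It was listed in 2 of the 9 libraries, both of day 4, with 2 counts (0.06 FPKM) each. No fold change is given, since no day reached the floor of 3 counts per library. In a fit without the filter, none of its comparisons was called (adjusted p = 0.13, 0.18 and 1.0 for the early phase, the late phase and the whole process).

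Expressed as shares of the summed FPKM of the 3 uncoupling proteins, Ucp2 made up 99.95 ± 0.026% on day 0, 99.88 ± 0.029% on day 4 and 99.63 ± 0.14% on day 8 (SD, n = 3). The share of Ucp3 was 0.047 ± 0.026%, 0.10 ± 0.012% and 0.37 ± 0.14% on these days. The day 8 libraries of Ucp3 (0.28 to 0.53%) lay above those of day 0 (0.029 to 0.076%). Macrophages also express Ucp2, and 4 of 7 macrophage genes passed the filter. The 7 genes summed to 7.86 ± 0.98, 5.24 ± 0.42 and 5.47 ± 0.35 FPKM on day 0, day 4 and day 8, with Cd14 the most abundant. Summed over the libraries of these days, Cd14 had 442, 315 and 272 counts, Cd68 had 90, 86 and 112, and Csf1r had 54, 89 and 79, none of them called in the early or late phase or the whole process. Lyz2, the lysozyme gene, was downregulated in the early phase (-2.10, SE 0.32, adjusted p = 2.1e-05) and upregulated in the late phase (1.25, SE 0.36, adjusted p = 0.0093), having passed the filter only through day 0 and day 8, where it was high. The leukocyte gene Ptprc had 5, 4 and 5 counts, Itgam at most 3 summed over a day, and Adgre1, a defining macrophage gene, 2 in all 9 libraries together. The part of such cells in the level of Ucp2 was not tested.

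Of the genes of brown fat identity, Elovl3 (gene ID 12686), an elongase of very long chain fatty acids that rises with cold in brown fat, appeared with differentiation. It was listed in none of the day 0 libraries, had 15, 18 and 15 counts on day 4, and 15, 10 and 10 counts on day 8. All later libraries were above those of day 0, and the libraries of day 4 and day 8 overlapped. Levels were 0.43 ± 0.038 FPKM on day 4 and 0.31 ± 0.078 on day 8 (SD, n = 3). Against 3 counts in each day 0 library, Elovl3 was at least 5.24-fold higher on day 4 and at least 3.94-fold higher on day 8. It was called upregulated in the early phase (adjusted p = 4.1e-06) and in the whole process (adjusted p = 1.5e-05). The fitted log2 fold changes of 7.01 and 6.60 rest on the prior count of the fit and are no measure of size. In the late phase the log2 fold change was -0.41 (SE 0.34, 95% interval -1.06 to 0.25, adjusted p = 0.35), and the ratio of summed counts was 0.729 (exact 95% counting interval 0.458 to 1.15). Like Ucp3, Elovl3 passed the filter only through its later days and lost its calls on log2(FPKM + 1).

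Cidea (gene ID 12683), a lipid droplet protein abundant in brown fat, had 0, 0 and 1 counts on day 0, 3, 1 and 2 on day 4, and 2, 6 and 2 on day 8. Single libraries reached the floor, but no day did in all 3 of its libraries. Summed counts were 1, 6 and 10, and the ratio of day 8 to day 0 was 9.81 with an exact 95% counting interval from 1.40 to 426. Cidea was not among the genes tested. In a fit without the filter its whole process change was called (log2 fold change 2.99, adjusted p = 0.036), while the early and late changes were not (adjusted p = 0.17 and 0.56).

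Prdm16 (gene ID 70673), a transcriptional coregulator that specifies brown and beige fate, was unlisted on day 0 and day 4 and had 1, 0 and 3 counts on day 8, at 0.02 FPKM or less. No comparison of it was called in the fit without the filter (adjusted p = 1.0, 0.18 and 0.13 for the early phase, the late phase and the whole process).

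Creatine is made in 2 steps. Gatm joins arginine and glycine to guanidinoacetate, and Gamt methylates this product to creatine. Cells can also take creatine up through the transporter Slc6a8, and creatine kinases such as Ckb then pass phosphate between ATP and creatine. The windows of Gamt, which was well expressed, and Ckb, which was not, are shown for comparison. They lie at chr10:80261013-80261262 on the minus strand for Gamt and chr12:111672339-111672588 on the minus strand for Ckb, on the same build. Capitals mark GGGCGG or TATAAA on either strand.
Gamt: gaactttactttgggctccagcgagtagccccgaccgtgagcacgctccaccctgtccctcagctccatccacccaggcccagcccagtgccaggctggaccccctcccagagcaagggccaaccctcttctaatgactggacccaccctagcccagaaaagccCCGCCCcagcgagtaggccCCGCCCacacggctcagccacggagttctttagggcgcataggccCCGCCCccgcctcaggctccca
Ckb: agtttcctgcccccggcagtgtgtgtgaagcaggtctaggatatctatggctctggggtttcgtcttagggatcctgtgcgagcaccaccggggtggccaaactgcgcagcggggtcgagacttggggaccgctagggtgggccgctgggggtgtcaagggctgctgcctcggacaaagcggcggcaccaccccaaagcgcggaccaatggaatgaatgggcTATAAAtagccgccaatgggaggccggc

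The window of Gamt held 3 GC boxes, at 86, 67 and 22 bases before the start, and 12 CG dinucleotides. That of Ckb held 1 TATA box, 28 bases before the start, and 16 CG dinucleotides, as many as the window of Ucp2. Neither window held AGGTCA or TGACGTCA. The window of Prdm16, which was below detection, also held 1 GC box, 220 bases before the start, and 22 CG dinucleotides. In the window of Gatm, which was not listed, there was 1 half-site, 156 bases before the start, and 17 CG dinucleotides.

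Gamt (gene ID 14431) peaked on day 4. Its libraries had 472, 347 and 393 counts on day 0, 773, 825 and 860 on day 4, and 703, 642 and 643 on day 8. The 3 days did not overlap, and day 8 lay between the others. In FPKM this was 21.8 ± 2.44, 43.5 ± 2.88 and 35.1 ± 1.77 (SD, n = 3). Gamt was upregulated 2.08-fold in the early phase (log2 fold change 1.06, SE 0.079, adjusted p = 5.1e-09). In the late phase it was lower by 1.198-fold (-0.26, SE 0.075, adjusted p = 0.0099), and over the whole process it was higher by 1.74-fold (0.80, SE 0.080, adjusted p = 1.9e-07), both short of the fold threshold. The late change differed from the early one by -1.32 (SE 0.13, adjusted p = 3.1e-07). The early call sits at the threshold, as scaling by library size alone gave 0.99 and limma on log2(FPKM + 1) gave 0.97.

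Slc6a8 (gene ID 102857), the creatine transporter of the plasma membrane, went the other way. It had 3374, 2768 and 3309 counts on day 0, 2470, 2376 and 1939 on day 4, and 1599, 1442 and 1461 on day 8. Each day lay below the one before without overlap, and the third library of day 4 stood lower than its companions. Levels were 39.9 ± 1.70, 28.1 ± 3.11 and 18.65 ± 1.04 FPKM (SD, n = 3). Its changes on the log2 scale were -0.44 in the early (SE 0.069, adjusted p = 3.3e-05) and -0.55 in the late phase (SE 0.072, adjusted p = 1.2e-05), and -0.98 over the whole process (SE 0.071, adjusted p = 3.2e-09). The last of these is a 1.98-fold lower level, so that Slc6a8 passed the p threshold in each comparison and the fold threshold in none. Scaling by library size alone (-1.10) or leaving out the second library of day 0 or the first of day 8 (both -1.02) took it past the fold threshold. The 2 phases were not separated in size (difference -0.11, SE 0.12, adjusted p = 0.48), except without the third library of day 4 (-0.29, adjusted p = 0.022).

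Ckb (gene ID 12709), the creatine kinase that drives the futile creatine cycle in thermogenic fat, was at the limit of detection. It had 8, 4 and 2 counts on day 0, 7, 9 and 4 on day 4, and 8, 2 and 8 on day 8. The libraries of all 3 days overlapped. Levels were 0.16 ± 0.10, 0.23 ± 0.081 and 0.20 ± 0.12 FPKM (SD, n = 3). The ratio of summed counts was 1.40 (exact 95% counting interval 0.673 to 3.00) in the early phase, 0.900 (0.449 to 1.79) in the late phase and 1.26 (0.593 to 2.74) over the whole process. These intervals cover counting error only, and changes of the sizes within them are not excluded. Ckb was not among the genes tested, and a fit without the filter called none of its comparisons (adjusted p = 0.49, 0.96 and 0.59). Of the 50-base stretches of its transcripts, 9.98% also occur in other genes, among them its pseudogenes Ckb-ps1 and Ckb-ps2, while the transcripts of the other 9 genes had none, so that counts of Ckb are uncertain. The remaining creatine kinases had few counts. Ckmt1, a mitochondrial form, had 12 counts over the day 0 libraries, 1 on day 4 and 0 on day 8. Ckm, the muscle form, had 1 count in all, on day 0, and Ckmt2, the other mitochondrial form, was listed in no library.

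**Figure D2:**
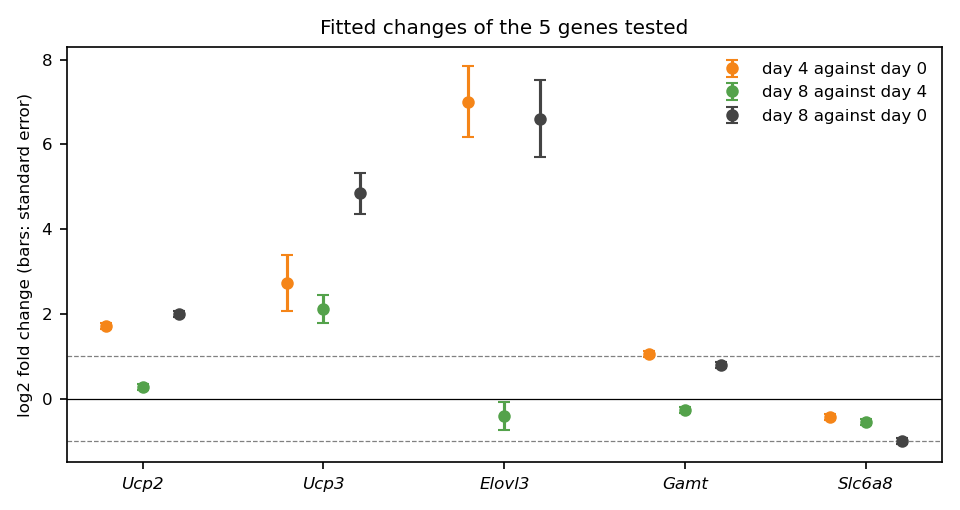
Log2 fold changes (y axis) fitted with edgeR for the 5 genes tested (x axis) in the early phase (day 4 against day 0), the late phase (day 8 against day 4) and the whole process (day 8 against day 0). Points are estimates, bars are standard errors and dashed lines mark a fold change of 2; Ucp2, Ucp3 and Elovl3 lie above the upper line over the whole process and Slc6a8 (-0.98) lies at the lower one, while the day 0 counts of Elovl3 are 0 and the size of its changes rests on the prior count.

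Among the 5 genes tested, 4 (Ucp2, Ucp3, Elovl3 and Gamt) were called upregulated and 0 downregulated in the early phase, beside 17.8% of all 13154 genes tested (9.77% upregulated and 7.98% downregulated). In the late phase 1 (Ucp3) was called upregulated and 0 downregulated, beside 7.05% of all genes (4.24% and 2.81%). Over the whole process 3 (Ucp2, Ucp3 and Elovl3) were called upregulated and 0 downregulated, beside 18.0% (10.3% and 7.70%). These counts are given as a description. Ucp3 and Elovl3 could pass the filter only by being high on a later day, and the 5 genes that were not tested are not part of the counts. The difference between the late and the early change was called for 3 genes, Ucp2, Elovl3 and Gamt, each with a smaller or opposite late change, beside 56.6% of all genes. Of all genes tested, 26.2% were called with a positive difference, late minus early, and 30.4% with a negative one, as were these 3 genes. Libraries of 2 days without overlap were common in these data, with 72.3% of all genes tested in the early phase, 54.5% in the late phase and 75.5% over the whole process.

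The levels across the 9 libraries had close company. For each gene called in at least 1 comparison, the tested genes whose mean log2 CPM was 3 or more were ranked by Pearson's r of log2 CPM, given without a p because the 9 libraries fall into 3 days. The highest values for Ucp2 were Sardh (0.9987) and Pcca (0.9985), for Ucp3 Ppme1 and P3h1 (both 0.9911), for Elovl3 Mecr (0.9963) and Glod4 (0.9954) and for Gamt Snn (0.9964) and Tmem208 (0.9944). Sardh encodes a mitochondrial dehydrogenase of sarcosine and Pcca a subunit of propionyl-CoA carboxylase. With Ucp2 alone, 1119 of 9649 genes had an r above 0.95, so that such values single out no gene.

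Other genes of the pathway were described from lists written for this purpose, in which changes are log2 fold changes. Among 16 activators of the thermogenic program, 9 were tested, 3 were upregulated and 1 downregulated in the early phase, none in either direction in the late phase, and 3 upregulated over the whole process, with a median of 0.21 over the whole process beside -0.018 for all genes. Here and for each list below, the shares of all genes called upregulated and downregulated were 9.77% and 7.98% in the early phase, 4.24% and 2.81% in the late phase and 10.3% and 7.70% over the whole process. The lists hold few tested genes, and these counts are descriptions. Ebf2, a factor of the brown precursor, stood at 0.77 ± 0.044 FPKM on day 0, 2.68 ± 0.25 on day 4 and 3.32 ± 0.066 on day 8, and was upregulated in the early phase (1.87, SE 0.10, adjusted p = 9.7e-11). Ppargc1b, a coactivator of mitochondrial genes, stood at 0.79, 3.00 and 3.06 FPKM on these days and was upregulated in the early phase (1.999, SE 0.15, adjusted p = 5.2e-09). Esrra, a nuclear receptor that binds these coactivators, rose by 1.07 in the early phase (SE 0.072, adjusted p = 1.4e-09) and by 1.21 over the whole process (SE 0.072, adjusted p = 2.6e-10). Foxc2, a forkhead factor, fell by 1.201 in the early phase (SE 0.092, adjusted p = 6.9e-09). Ppargc1a, the cold-inducible coactivator, had 3.66, 2.34 and 4.48 FPKM on day 0, day 4 and day 8. Its changes were -0.59 in the early phase (SE 0.071, adjusted p = 1.7e-06) and 0.98 in the late phase (1.97-fold, SE 0.069, adjusted p = 1.1e-08), both short of the fold threshold, and the libraries of the 3 days did not overlap. Dio2, which activates thyroid hormone, Ppara and Irf4 did not pass the filter, with 16, 38 and 24 counts summed over day 8.

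All 6 repressors of the program were tested. In the early phase Nrip1, a corepressor of nuclear receptors, was upregulated (1.31, SE 0.077, adjusted p = 2.4e-10), and so was Twist1 (1.00, SE 0.063, adjusted p = 5.9e-10), whose early call lies at the threshold and is lost with library size alone (0.94). None was called in the late phase. Over the whole process Twist1 (1.23, SE 0.063, adjusted p = 4.6e-11) and Zfp423 (1.05, SE 0.072, adjusted p = 1.7e-09), a keeper of white identity, were upregulated, the latter lost with library size alone (0.94). The 2 of 6 upregulated on day 4, and the 2 of 6 on day 8, against day 0 stand beside 9.77% and 10.3% of all genes, and the median of the list was 0.87 over the whole process.

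Of 9 genes of beta-adrenergic input, through which noradrenaline turns thermogenesis on, 8 were tested, and 3 were upregulated and 0 downregulated on day 4, and as many on day 8, against day 0, beside 9.77% and 10.3% of all genes upregulated. Adrb3, the beta-adrenergic receptor of adipocytes, was listed in no day 0 library and had 1.29, 1.29 and 1.74 FPKM on day 4 and 7.24, 8.19 and 7.22 on day 8. It was at least 26.6-fold higher on day 4 and at least 144-fold higher on day 8 than 3 counts in each day 0 library, and was the 1 gene of the list upregulated in the late phase (2.44, SE 0.13, adjusted p = 1.7e-09). Prkar2b, a regulatory subunit of protein kinase A, rose by 1.48 over the whole process (SE 0.069, adjusted p = 1.3e-11). Adrb1 had at most 9 counts summed over a day and was not tested.

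Among 20 effectors and markers of brown fat, 12 were tested. In the early phase 5 were upregulated and 2 downregulated, in the late phase 4 and 1, and over the whole process 4 and 0, with a median of 0.85 over the whole process. Of all genes, 9.77% and 7.98%, 4.24% and 2.81%, and 10.3% and 7.70% were called in these directions. Cox7a1, a subunit form of cytochrome c oxidase found in muscle and brown fat, had 0.27, 0.15 and 0.27 FPKM on day 0, 1.78, 1.76 and 1.96 on day 4, and 10.8, 13.9 and 11.8 on day 8. Its day 0 counts of 2, 1 and 2 were below the floor of 3, so that it passed the filter only through the later days and its early call (adjusted p = 2.7e-05) rests on that choice. Summed counts on day 4 were 7.85 times those on day 0 (exact 95% counting interval 3.10 to 25.5). Cox7a1 was also upregulated in the late phase (2.77, SE 0.21, adjusted p = 3.1e-08). Cox8b, another such subunit, was listed in no day 0 library and had 13, 11 and 15 counts on day 4 and 94, 91 and 75 on day 8. That was at least 29.3-fold above 3 counts in each day 0 library on day 8, and counts on day 8 were 6.67 times those on day 4 (exact 95% counting interval 4.75 to 9.59). Kcnk3, a potassium channel, rose by 2.06 in the early phase (SE 0.12, adjusted p = 2.1e-10) and reached 29.4 ± 2.16 FPKM on day 8.

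S100b, a calcium-binding protein, was upregulated over the whole process (1.23, SE 0.13, adjusted p = 2.5e-07). Pdk4, which limits pyruvate oxidation, rose in the early phase (1.41, SE 0.080, adjusted p = 1.5e-10) and fell in the late phase (-1.95, SE 0.084, adjusted p = 3.1e-11). Acot2, a mitochondrial thioesterase, did the reverse, with -1.12 (SE 0.089, adjusted p = 1.1e-08) and 1.06 (SE 0.090, adjusted p = 8.7e-08). Otop1, with 34, 10 and 55 counts summed over day 0, day 4 and day 8, also fell and then rose (-1.69, SE 0.53, adjusted p = 0.0096, and 2.46, SE 0.48, adjusted p = 5.5e-04), and passed the filter only through the days on which it was high. Plin5, Lhx8 and Zic1 did not pass the filter, with 3, 5 and 11 counts summed over day 8.

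**Figure D3:**
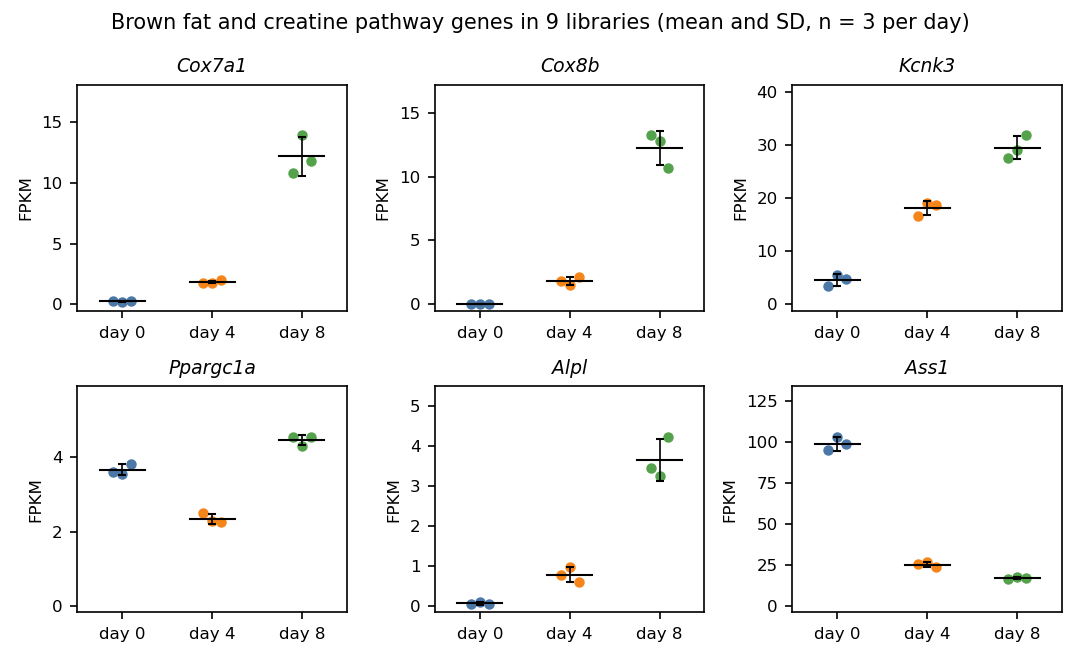
FPKM (y axis, linear, a scale of its own in each panel) on day 0, day 4 and day 8 (x axis) for 4 genes of the brown fat program (Cox7a1, Cox8b, Kcnk3, Ppargc1a) and 2 of creatine and arginine metabolism (Alpl, Ass1). Points are libraries (3 per day), lines are means and bars are SDs; Cox7a1, Cox8b, Kcnk3 and Alpl are highest on day 8, Ppargc1a is lowest on day 4 and Ass1 falls from 98.9 FPKM to 16.9 FPKM.

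The 11 beige markers gave 6 tested genes, of which 3 were upregulated and 2 downregulated on day 4, and as many on day 8, against day 0, and 2 were upregulated in the late phase, beside 9.77% and 7.98%, 10.3% and 7.70%, and 4.24% of all genes. The median over the whole process was 1.24. Slc36a2, an amino acid transporter, was listed in no day 0 library and reached 8.55 FPKM on day 8, at least 141-fold above 3 counts per library. Aqp7, a glycerol channel that white adipocytes also express, rose by 5.86 over the whole process (SE 0.21, adjusted p = 4.5e-13), and Cited1, with 20 counts over day 0 and 68 over day 8, by 1.83 (SE 0.41, adjusted p = 8.8e-04). Both passed the filter only through the later days, where they were high. Sp100 (-2.63, SE 0.11, adjusted p = 4.9e-12) and Hoxc9 (-2.22, SE 0.32, adjusted p = 1.2e-05) were downregulated. Hoxc9, with 105, 25 and 21 counts summed over day 0, day 4 and day 8, passed the filter only through day 0, where it was high. P2rx5 was called in the early phase at the threshold (1.00, SE 0.35, adjusted p = 0.018) and under none of the other scalings, and it too passed the filter only through the later days. Tmem26, Tbx1 and Tnfrsf9, surface and nuclear markers of beige precursors, had at most 17 counts summed over a day and were not tested.

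White fat markers were examined in the same way. Of 10, 6 were tested, 5 were upregulated and 0 downregulated on day 4 and again on day 8 against day 0, and 2 were upregulated and 1 downregulated in the late phase. Of all genes, 9.77% were upregulated on day 4 and 10.3% on day 8 against day 0, and the late shares were 4.24% and 2.81%. The median over the whole process was 6.32, or 4.02 with the genes at 0 on day 0 placed at their lower bounds. Retn, which encodes resistin, went from 0.21 FPKM on day 0 to 392 on day 8 and was called upregulated (adjusted p = 3.9e-15). Its day 0 counts of 2, 3 and 2 did not reach the floor in every library, it passed the filter only through the later days, and summed counts on day 8 were 1930 times those on day 0 (exact 95% counting interval 936 to 4800). Agt, the angiotensinogen gene, rose by 5.59 in the early phase (SE 0.062, adjusted p = 7.5e-19) and fell in the late phase (-1.86, SE 0.051, adjusted p = 1.3e-13). Lep, which encodes leptin, was unlisted on day 0 and reached 0.89 FPKM on day 8, at least 19.8-fold above 3 counts per library. Wfdc21 was unlisted on day 0 as well and reached 11.5 FPKM. Dpt, a matrix protein, rose by 3.25 over the whole process (SE 0.066, adjusted p = 9.2e-16). Others of the list were lower on the later days. Nnat had 36, 28 and 13 counts summed over day 0, day 4 and day 8. It was tested and not called over the whole process (-1.36, SE 0.61, adjusted p = 0.056). Hoxc8 and Hoxc10, with 3.51 and 2 counts summed over day 0 and 0 on both later days, did not pass the filter. Slc7a10 and Tcf21 were listed in no library. Whether the white and brown lists differed from each other was not tested.

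Among 14 other genes of creatine supply and use, 7 were tested, 1 was upregulated and 1 downregulated on day 4 and again on day 8 against day 0, and 1 upregulated in the late phase, beside 9.77% and 7.98%, 10.3% and 7.70%, and 4.24% of all genes. The median over the whole process was 0.085. Alpl encodes the tissue-nonspecific phosphatase, which splits phosphocreatine in thermogenic fat. It had 0.04, 0.09 and 0.04 FPKM on day 0, 0.76, 0.97 and 0.60 on day 4, and 3.45, 3.25 and 4.23 on day 8. Every later day was above the one before without overlap, and Alpl was upregulated in the late phase (2.27, SE 0.18, adjusted p = 4.1e-08). With 2, 4 and 2 counts on day 0 it was below detection there and passed the filter only through the later days, on which its early call (adjusted p = 1.8e-07) rests. Summed counts on day 4 were 14.6 times those on day 0 (exact 95% counting interval 7.17 to 34.6). Ass1, which makes argininosuccinate on the way to arginine, the substrate of Gatm, had 94.9, 103 and 98.6 FPKM on day 0, 25.2, 26.8 and 23.5 on day 4, and 16.5, 17.3 and 16.7 on day 8. It was downregulated in the early phase (-1.91, SE 0.056, adjusted p = 4.7e-14) and over the whole process (-2.44, SE 0.058, adjusted p = 5.2e-15). Asl, the next enzyme, and Oat, which uses ornithine, the other product of Gatm, were higher by 0.45 and 0.70 over the whole process and were not called. Neither were Mat2a and Ahcy, which make and recycle the methyl donor of Gamt, with whole process values of 0.085 and -0.74. The creatine exporter Slc16a12 had at most 2 counts summed over a day and was not tested.

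Of 8 carriers related to the uncoupling proteins, 7 were tested, 2 were upregulated and 0 downregulated in the early phase, none was called in the late phase, and 2 were upregulated and 1 downregulated over the whole process, with a median of 0.0010. The shares of all genes were 9.77% and 7.98% on day 4, and 10.3% and 7.70% on day 8, against day 0. Slc25a10, the dicarboxylate carrier, had 9.51 ± 0.31 FPKM on day 0, 74.5 ± 9.32 on day 4 and 107 ± 4.04 on day 8, and was upregulated in the early phase (3.04, SE 0.081, adjusted p = 1.6e-14). The ADP/ATP carriers Slc25a4 and Slc25a5, which also conduct protons, were more abundant than Ucp2 on every day, while Slc25a31, a further ADP/ATP carrier, had at most 1 count summed over a day. Slc25a4 had 516 ± 6.62, 466 ± 11.3 and 477 ± 17.6 FPKM and was not called (whole process 0.0010, SE 0.044, adjusted p = 0.99). Slc25a5 had 166 ± 15.0, 359 ± 28.7 and 367 ± 4.63 FPKM and was upregulated in the early phase (1.18, SE 0.064, adjusted p = 1.0e-10). Slc25a27, also known as Ucp4, was downregulated over the whole process (-1.17, SE 0.20, adjusted p = 6.5e-05).

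Calcium cycling through the pumps of the endoplasmic reticulum is another route of heat production. Of 7 such genes, 3 were tested, 0 were upregulated and 1 was downregulated in the early phase, none was called in the late phase, and 0 were upregulated and 1 downregulated over the whole process, with a median of -0.087, beside 7.98% and 7.70% of all genes downregulated in these 2 comparisons. Atp2a2, the common calcium pump, stood at 78.8, 86.3 and 79.1 FPKM on day 0, day 4 and day 8 and was not called. Atp2a3 was downregulated in the early phase (-1.06, SE 0.25, adjusted p = 0.0014), which was lost without the first library of day 0 (-0.77). Atp2a1, the fast muscle pump, was downregulated over the whole process (-1.35, SE 0.37, adjusted p = 0.0042), from 0.25 to 0.087 FPKM. With 52.2, 29 and 19 counts summed over day 0, day 4 and day 8, it passed the filter only through day 0, where it was high. Sln, which uncouples the pump in muscle, was listed in no library.

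**Figure D4:**
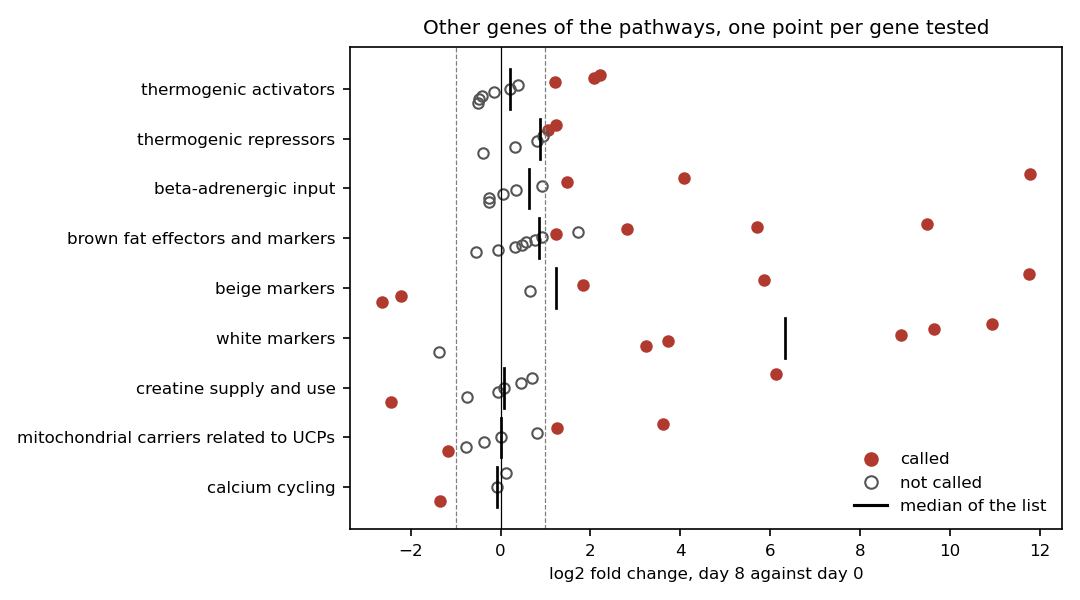
Log2 fold change of day 8 against day 0 (x axis) for each tested gene of 9 lists (y axis), with filled points for genes called, open points for genes not called, black bars for list medians and dashed lines at a fold change of 2. The white markers have the highest median (6.32), and the genes farthest to the right (Adrb3, Slc36a2, Retn) include some that were at 0 on day 0, whose position rests on the prior count.

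Cell types other than adipocytes were followed by their markers beside these results. The 6 fibroblast genes summed to 4099 ± 159 FPKM on day 0, 2415 ± 115 on day 4 and 4200 ± 23.8 on day 8, with Col1a1 the most abundant. This sum hides members that moved in different directions. Fn1, which encodes fibronectin, was downregulated (-1.79, SE 0.098, adjusted p = 1.0e-10) and Postn, a matrix protein, upregulated over the whole process (1.74, SE 0.076, adjusted p = 5.7e-12), while Dlk1, a preadipocyte gene, was downregulated in the early phase (-2.13, SE 0.060, adjusted p = 3.4e-14) and upregulated in the late phase (1.24, SE 0.059, adjusted p = 9.3e-11). Of the 6, 2 were downregulated in the early phase (7.98% of all genes), 1 was upregulated in the late phase (4.24%), and 1 went each way over the whole process (10.3% and 7.70%). The 5 Schwann cell genes summed to 1.92 ± 0.086, 0.99 ± 0.062 and 1.01 ± 0.12 FPKM. The part of other cell types in the changes of Ucp2, Gamt and Slc6a8 was not tested.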

How the data were processed

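Total RNA of 3T3-L1 cells was sequenced in 9 libraries. Per the study's methods, sequencing was done on an Illumina instrument, whereas a BGI library kit is named in the labels. The authors filtered the reads, mapped them with HISAT/Bowtie2 and quantified genes with RSEM. The submitters' processing notes name CASAVA 1.4 and Bowtie2, and the genome build is not given in the sources used here. The authors deposited expected counts, which are not normalized and of which 29.8% were not whole, and FPKM, scaled to gene length and depth. The lowest FPKM listed was 0.01, and a gene unlisted in a library was entered as 0.

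Expected counts were rounded and analysed with edgeR 4.0.16 in R 4.3.3 (filterByExpr by day, TMM factors, glmQLFit and glmQLFTest, all 9 libraries, a coefficient per day), and 13154 genes were tested. The SE is the log2 fold change divided by the square root of F. The late and early changes were compared by a contrast with an adjusted p under 0.05 and no fold threshold. Depth was 18216114 to 20452144 counts per library, and libraries of a day differed by more than sampling noise (chi-square per gene of 2.40 to 10.7). Symbols and gene IDs are those of the files. Sequences are RefSeq's on GRCm38.p6, and shared stretches were counted in GENCODE transcripts. The 10 genes were given by symbol. Those and the other lists were chosen with earlier results of these data known. Named are all 10 genes, up to 6 called genes per list with the largest changes or genes that define the list, and the 2 genes closest to each called gene. Genes such as Dio2, Plin5, Adrb1, Tmem26 and Asl, named for their low or uncalled values, and the markers of other cell types were picked with their values in view. A few genes of the lists are counted but not reported here by name.

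Alternatives were RLE factors, library size alone, no filter, at least 10 counts in every sample, DESeq2 1.42.0, edgeR's exact test, limma 3.58.1 on log2(FPKM + 1) and log2(FPKM + 0.1), separate fits of 2 days, a replicate block and each library left out. Other detection limits and shares of CPM computed from the deposited counts were also tried.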

Additional observations from a re-analysis of the deposited data

How the results depend on the processing

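Counts of called genes and of the 10 genes were within 1.5 times of the values given, except as follows. With at least 10 counts in every sample, 831 genes were upregulated in the early phase and 310 upregulated and 173 downregulated in the late phase; Ucp3 and Elovl3 were no longer tested, so that 2, 0 and 1 of the 10 genes were upregulated in the early phase, the late phase and the whole process. With limma on log2(FPKM + 1), which compresses low values, 708 genes were upregulated and 565 downregulated in the early phase, 224 and 136 in the late phase and 753 and 528 over the whole process, and 1, 0 and 1 of the 10 genes were upregulated. Slc6a8 became 1 downregulated gene over the whole process with library size alone, with both limma fits, without day 0 replicate 2 and without day 8 replicate 1, so that this count ran from 0 to 1 when single libraries were left out. For Gamt in the early phase, limma on log2(FPKM + 0.1) also missed the fold threshold (0.9959). Library size alone moved the median of all genes over the whole process from -0.018 to -0.13. Without the filter Cidea was called over the whole process, as stated above. Single libraries left out changed no call of Ucp2, Ucp3, Elovl3 or Gamt in the early phase, the late phase or the whole process.

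At least 1 count in each library as the limit gave 5 genes detected on day 0 and 7 on each later day, among them Cidea on both later days and Ckb on all 3 days, at least 10 counts gave 3, 4 and 5 genes, without Ucp3 and Ckb on day 4, and at least 1 FPKM gave 3 on day 4 and 3 on day 8. By CPM instead of FPKM the share of Ucp2 was 99.9254%, 99.8183% and 99.4301% on day 0, day 4 and day 8.

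Deviations of same-numbered libraries of different days were hardly correlated (mean r 0.031, -0.035 to 0.075 over 9 pairs, against -0.015 for other pairs). Such values cannot tell whether the numbers pair the samples, since pairing may leave no trace in them. With a replicate block 1287 and 1053 genes were called in the early phase, 556 and 367 in the late phase and 1360 and 1010 over the whole process, with the same counts of 4, 1 and 3 of the 10 genes upregulated.

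Depth limits Ucp1, Cidea, Prdm16 and Ckb, which had at most 9 counts in any library.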
